A study of Mus musculus with 26 samples.

Results

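The 10 genes described here are Isx, Cdx2, Tph2, Prap1, Lypd4, Chrm4, Irx3os, Nr2e3, Akr1c18 and Gpr55, out of 57186 genes in the table that holds all Fgf9 deletions. They were chosen by their measured values, namely a large rise in libraries of the deletions Δ306, Δ93 or Δ104, so their levels in those 3 groups are a description and carry no test. RNA was sequenced from XY mouse gonads at embryonic day E13.5, dissected free of the mesonephros, in 26 libraries of 6 groups. The groups are wild type (WT, 3 libraries), the Fgf9 deletion genotypes Δ306 (3), Δ93 (6), Δ104 (4) and Δ225 (6), and Meis1 KO (4), a loss of the homeobox gene Meis1. The labels give no allele, strain, zygosity or deletion boundary beyond these names, and do not say whether gonads were pooled. The study's title speaks of regulatory hubs in sex determination, and the stated design names the comparison of WT with Δ306.

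Fgf9 encodes a secreted growth factor that sustains Sertoli cell fate in the XY gonad. Foxl2 encodes a forkhead transcription factor of pre-granulosa cells, the supporting cells of the ovary, and is normally silent in Sertoli cells. Supporting cells of an XY gonad in which FGF9 signalling fails are known to take the pre-granulosa path. Several of the 10 genes are better known from other tissues. Isx and Cdx2 encode homeobox transcription factors of the intestinal epithelium, Nr2e3 a nuclear receptor of photoreceptors, and Tph2 the enzyme of serotonin synthesis in neurons. Chrm4 encodes the muscarinic acetylcholine receptor M4, Gpr55 a G-protein-coupled receptor for lysophosphatidylinositol, Akr1c18 an aldo-keto reductase that inactivates progesterone, Prap1 a secreted proline-rich protein of gut and uterine epithelium, and Lypd4 a Ly6-domain protein of male germ cells. Irx3os is a non-coding transcript on the strand opposite to Irx3.

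Because Foxl2 is a forkhead factor and the genes were followed against it, the 250 bases upstream of each RefSeq gene start (GRCm38.p6) were searched on both strands for a forkhead core (GTAAACA), a core of GATA factors (AGATAA), of NR5A1 (CAAGGTCA), of CDX factors (TTTATNG), of TCF/LEF (CTTTGAT) and of SOX factors (ACAATG), and for the TATA box (TATAAA). All 10 genes had such a window. The forkhead letters occurred in 1 of them, that of Cdx2, and in 3.17% of all 32851 windows. The letters for GATA factors occurred in those of Tph2 and Prap1 (9.99% of all windows), and TATAAA in that of Tph2 (12.4%). None of the 10 windows held the letters for NR5A1 (1.33% of all windows), CDX (9.81%), TCF/LEF (3.21%) or SOX (10.7%). The Chrm4 window (chr2:91921939-91922188) ended well before the GENCODE M21 start of the gene at 91927249. Those of Irx3os and Nr2e3 lay inside the GENCODE spans of their genes. For Chrm4, Irx3os and Gpr55 the bases that follow the window were not found in a GENCODE transcript of the gene. A lack of letters in these windows may therefore not hold for the promoter in use. A match is a run of letters and not a shown binding site. The windows with a match are printed 5′ to 3′ on the gene's strand, with the matched letters in capitals, and that of Isx, without a match, stands beside them as the other gut homeobox gene.
Cdx2, chr5:147307250-147307499, minus strand: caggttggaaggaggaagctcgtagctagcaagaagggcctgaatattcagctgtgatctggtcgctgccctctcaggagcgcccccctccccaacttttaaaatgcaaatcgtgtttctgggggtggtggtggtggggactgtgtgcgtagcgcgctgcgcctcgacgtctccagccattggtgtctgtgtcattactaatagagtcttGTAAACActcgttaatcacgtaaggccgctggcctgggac
Tph2, chr10:115185023-115185272, minus strand: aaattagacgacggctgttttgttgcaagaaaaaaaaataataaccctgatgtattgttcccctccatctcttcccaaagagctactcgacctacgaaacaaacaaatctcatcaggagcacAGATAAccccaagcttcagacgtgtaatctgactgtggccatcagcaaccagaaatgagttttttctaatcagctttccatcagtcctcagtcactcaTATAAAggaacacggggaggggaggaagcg
Prap1, chr7:140093146-140093395, plus strand: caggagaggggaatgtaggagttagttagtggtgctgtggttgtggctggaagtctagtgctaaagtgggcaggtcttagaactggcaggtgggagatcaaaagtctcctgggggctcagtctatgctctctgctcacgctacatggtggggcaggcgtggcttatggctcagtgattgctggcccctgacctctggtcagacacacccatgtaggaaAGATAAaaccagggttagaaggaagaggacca
Isx, chr8:74872924-74873173, plus strand: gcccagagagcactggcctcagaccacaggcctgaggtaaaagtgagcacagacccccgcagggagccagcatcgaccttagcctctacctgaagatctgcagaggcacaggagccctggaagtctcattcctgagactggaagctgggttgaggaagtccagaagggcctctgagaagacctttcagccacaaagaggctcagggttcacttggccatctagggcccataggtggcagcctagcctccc
In the Cdx2 window GTAAACA lay 40 to 34 bases before the RefSeq start. In the Tph2 window AGATAA lay at 128 to 123 and TATAAA at 30 to 25 bases before it, and in the Prap1 window AGATAA lay at 32 to 27.

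Library totals ran from 11582619 to 53392393 counts in the table of all deletions and from 35468633 to 51732897 in the Meis1 table. Levels are CPM (counts scaled to a library of standard size) on TMM-scaled library sizes, unless given per kilobase of exon, and a gene was called on in a library at 1 CPM or more, off under 0.1 CPM, and between otherwise. The summed Y-linked transcripts (Ddx3y, Uty, Kdm5d, Eif2s3y) lay under 10% of the WT median in 7 deletion libraries, namely Δ306 replicate 3, Δ104 replicate 3, Δ225 replicate 4 and Δ93 replicates 3 to 6. The part of these 7 in the results was not tested, and counts are also given without them. The libraries kept were mostly low as well. They stood at 35.8% and 37.6% of the WT median in Δ306, 20.7% and 12.2% in Δ93 and 23.1% to 61.8% in Δ225. In Δ104 they stood at 16.1%, 16.9% and 109%, and the Meis1 KO libraries at 10.4% to 45.4%. Δ93 replicate 4 stood apart further: Xist was at 6.26 CPM of total counts there, against at most 3.09 in the other libraries, and 24 genes exceeded 10 times their level in each of the 21 other libraries of the table. Δ225 replicates 3 and 1 held 54 and 23 such genes, and no other library more than 4. In bulk tissue, more cells of a kind and more RNA per cell cannot be told apart. Meis1 KO, Δ93, Δ104 and Δ225 libraries are labelled as biological replicates and those of WT and Δ306 only as replicates, so p-values measure the spread between these samples, which may be technical for the latter.

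Most of the 10 genes were near zero in WT, Δ225 and Meis1 KO and well expressed in Δ306, Δ93 and 2 of the 4 Δ104 libraries. No gene was on in WT (0 of 30 gene-by-library values) or in Δ225 (0 of 60). On values numbered 20 of 30 in Δ306, 46 of 60 in Δ93, 16 of 40 in Δ104 and 2 of 40 in Meis1 KO. The shares on were 66.7% in Δ306, 76.7% in Δ93 and 40.0% in Δ104. Without the 7 libraries of low Y-linked signal they were 65.0%, 75.0% and 46.7%, and without Δ93 replicate 4 the Δ93 share was 72.0%. Isx, Cdx2, Chrm4, Irx3os and Gpr55, 5 of the 10 genes, were on in every Δ306 and Δ93 library. Tph2 and Nr2e3 missed 1 CPM in 1 and 2 of those 9 libraries, and Prap1, Akr1c18 and Lypd4 reached it in no Δ306 or Δ104 library.

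**Figure D1:**
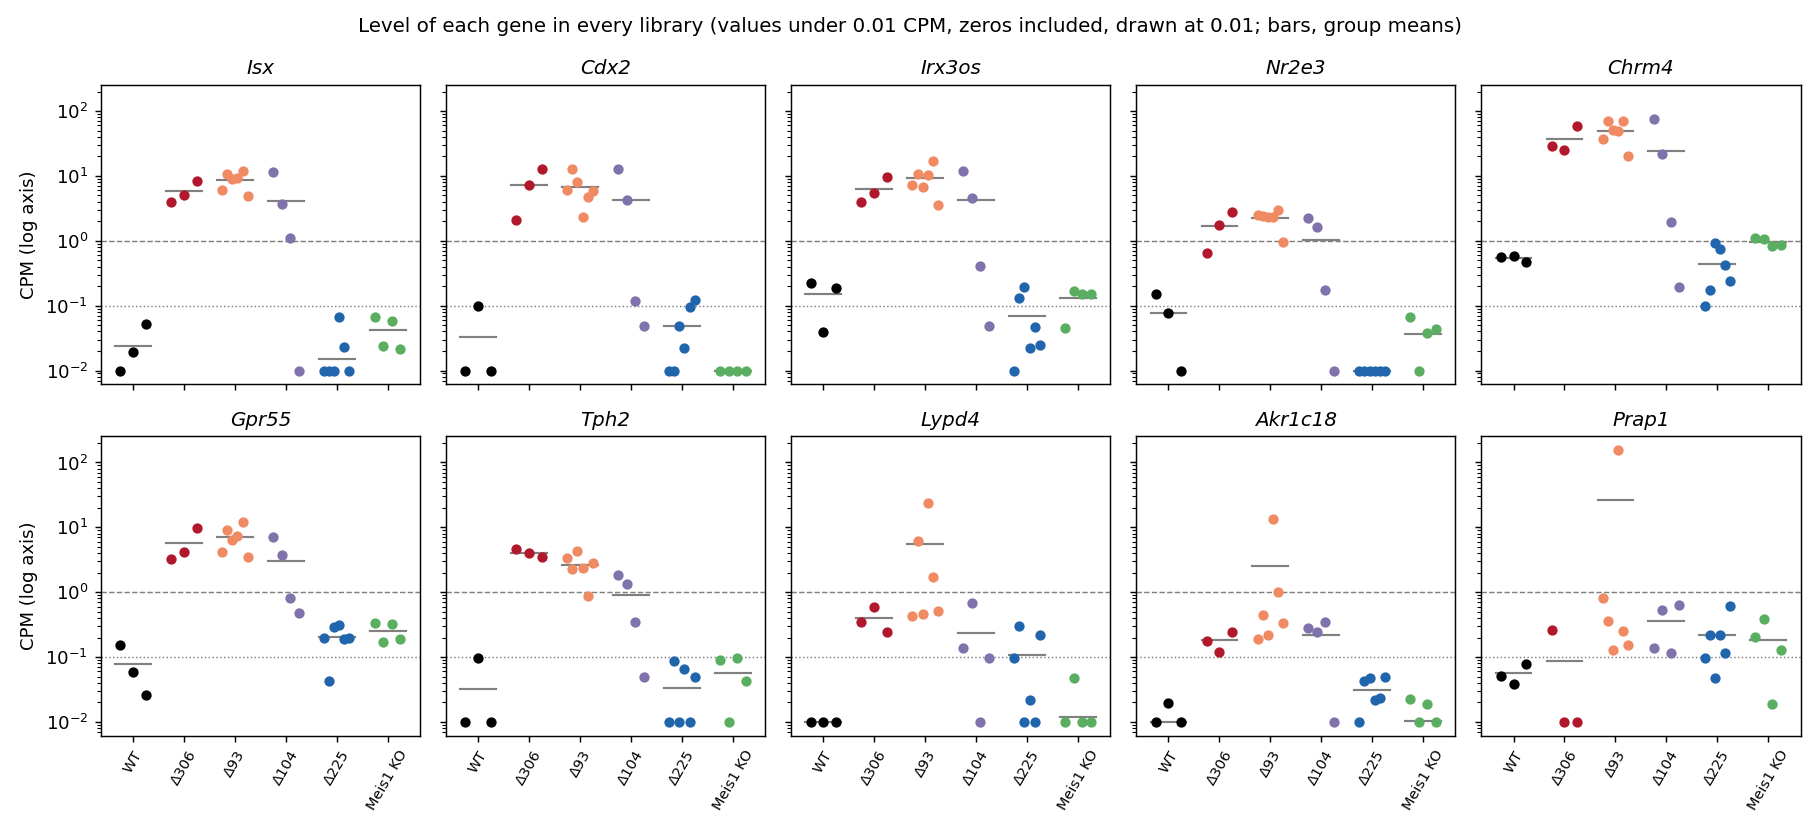
Level of each of the 10 genes in CPM (log axis) in every library by group, with dots for libraries, grey bars for group means, a dashed line at 1 CPM and a dotted line at 0.1 CPM; values under 0.01 CPM, zeros included, are drawn at 0.01. The first 7 genes lie above the dashed line in nearly all Δ306 and Δ93 libraries and below it in all WT and Δ225 libraries, while Prap1 reaches 156 CPM in 1 Δ93 library only.

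Fgf9 itself only partly followed this division, so the genes are not described here simply as answering to low Fgf9. In WT, Fgf9 was at 9.85, 9.21 and 9.55 CPM, in Δ306 at 2.94, 2.17 and 2.33, and in Δ93 between 2.30 and 4.75 (median 2.85). The 6 Δ225 libraries lay between 3.69 and 16.5 CPM (median 5.43), and 5 of the 6 are within the range of the Δ104 libraries, which stood at 2.72, 5.16, 6.98 and 4.52. Δ225 replicate 6, at 3.69 CPM Fgf9, had no member on, while Δ93 replicate 4, at 4.75, had all 10 on. Foxl2 separated the libraries more cleanly, which the choice of genes partly fixes, since they were picked for rises in groups where Foxl2 was also high. It lay between 0.633 and 0.829 CPM in WT, 0.339 and 7.19 in Δ225, 5.46 and 6.86 in Meis1 KO, 36.5 and 85.7 in Δ306 and 42.5 and 141 in Δ93. Every library with Foxl2 at 36.5 CPM or more had 6 or more members on, and every library at 13.0 or less had 2 or fewer.

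**Figure D2:**
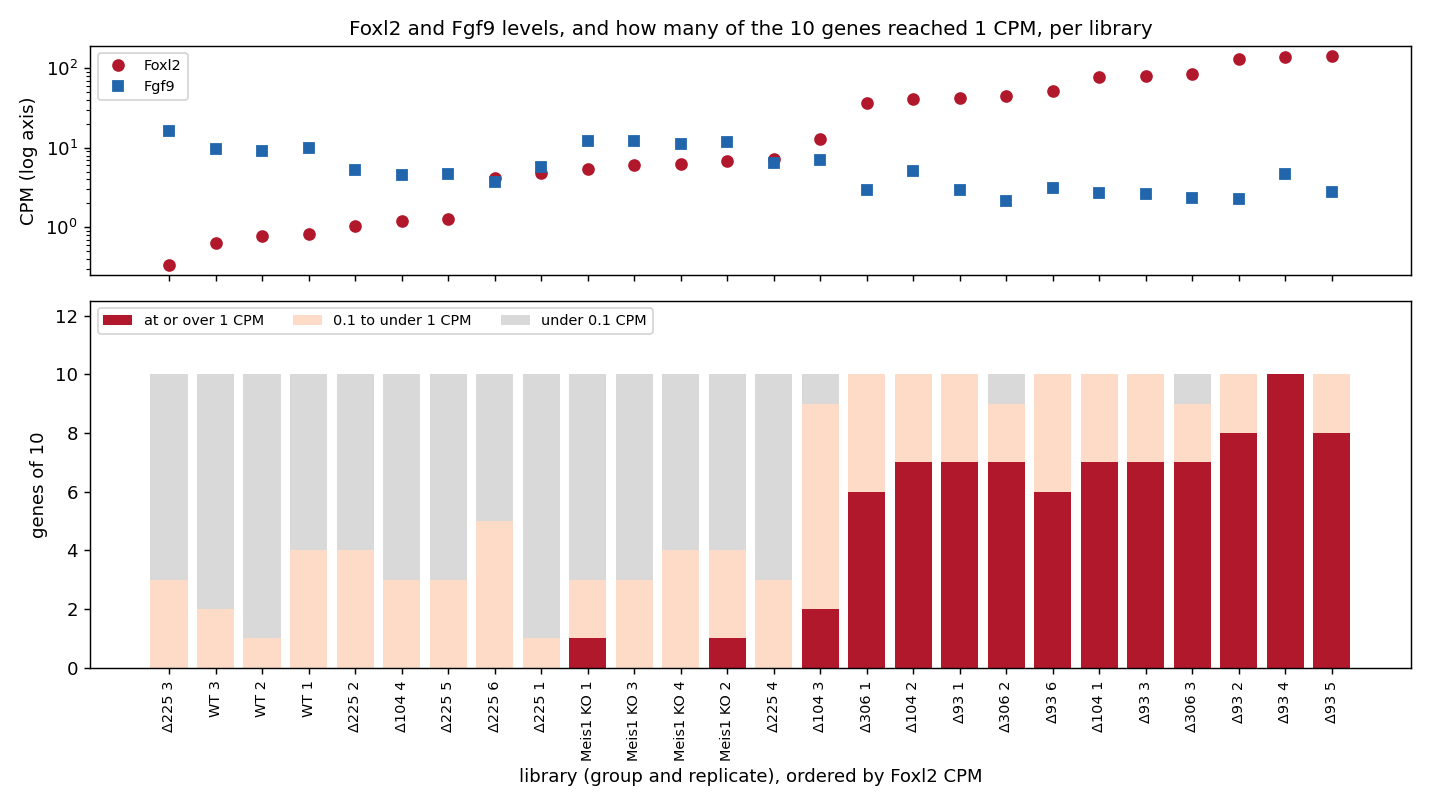
Libraries on the x axis are ordered by Foxl2; the upper panel gives Foxl2 and Fgf9 in CPM (log axis) and the lower panel the number of the 10 genes at or over 1 CPM, between 0.1 and 1 CPM, and under 0.1 CPM. Between Δ104 replicate 3 (Foxl2 13.0 CPM, 2 genes on) and Δ306 replicate 1 (36.5 CPM, 6 genes on) the count steps up.

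Among the transcription factors, Isx, which in gut represses genes of vitamin A uptake, was the most uniform. Its level was 0, 0.0194 and 0.0528 CPM in WT (3 counts in all), 3.91, 5.12 and 8.41 in Δ306, and between 4.82 and 12.1 (median 9.10) in Δ93. The 4 Δ104 libraries stood at 11.4, 3.64, 1.1 and 0 CPM. The Δ225 libraries lay between 0 and 0.0662, with 4 counts in 6 libraries, and did not overlap with any Δ306 or Δ93 library. The pooled ratio of Δ93 to WT was 384, with a 95% counting interval of 131 to 1860 that covers counting error only, since the WT value rests on 3 counts.

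Cdx2, the caudal-type factor that specifies intestinal epithelium, was at 0, 0.0971 and 0 CPM in WT and at 2.11, 7.20 and 12.8 in Δ306. In Δ93 it ranged from 2.31 to 13.0 CPM with a median of 5.99, and its lowest library there was replicate 4. In Δ104 it was at 12.7, 4.23, 0.116 and 0.0486 CPM, so replicates 1 and 2 were in the range of Δ306 while replicates 3 and 4 were near the WT values. Over Δ225 it did not pass 0.122 CPM, and all 4 Meis1 KO libraries had 0 counts of it. Its exon-length-scaled mean in Δ93, 2.95 CPM per kb, was below that of Isx, 4.81 CPM per kb.

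Nr2e3, which in the retina holds photoreceptor precursors to the rod fate, was low in all groups, at 0.658, 1.73 and 2.76 CPM in Δ306 and between 0.970 and 3.01 (median 2.38) in Δ93. In WT it was at 0.151, 0.0777 and 0 CPM. In Δ104 it stood at 2.25, 1.62, 0.174 and 0. None of the 6 Δ225 libraries had a count, which allows up to 0.0164 CPM over the group at 3 counts. Replicate 6 of Δ93 and replicate 1 of Δ306 were the 2 of these 9 libraries under 1 CPM.

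Irx3os was at 0.226, 0.0388 and 0.185 CPM in WT, 3.95, 5.53 and 9.50 in Δ306 and between 3.50 and 16.7 (median 8.69) in Δ93. It stood at 11.9, 4.62, 0.407 and 0.0486 CPM in the 4 Δ104 libraries and at most 0.193 in Δ225. Irx3os (chr8:91800415-91807539, plus strand, GRCm38) starts inside the annotated span of Irx3, 1652 bases from the Irx3 start and on the other strand. The libraries are stranded, but whether the counting used strand is not given in the sources used here, so reads of Irx3os and Irx3 where they overlap cannot be told apart, and the Irx3os values are uncertain for that reason.

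Chrm4, whose receptor M4 couples to inhibitory G proteins, reached the highest level per kilobase of the 10 genes in Δ306. It was already measurable in WT, at 0.553, 0.583 and 0.475 CPM, so it was raised rather than switched on. The Δ306 libraries stood at 28.5, 25.2 and 58.1 CPM and the Δ93 libraries between 20.2 and 71.3 (median 50.4), with a pooled ratio to WT of 68.4 and 95.6. The 4 Δ104 libraries ran over the whole range, at 74.5, 21.9, 1.98 and 0.195 CPM, and the last was below every WT library. Per kilobase, the Δ93 mean of Chrm4 was 34.7 CPM, beside 29.8 for Foxl2.

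Gpr55 was at 0.151, 0.0583 and 0.0264 CPM in WT, 3.29, 4.16 and 9.89 in Δ306 and between 3.55 and 12.0 (median 6.82) in Δ93. In Δ104 it stood at 7.03, 3.78, 0.814 and 0.486 CPM, so the 2 libraries that were not on still lay above every WT library. The pooled ratio to WT was 75.5 in Δ306 and 95 in Δ93. No Δ225 library passed 0.309 CPM.

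Tph2, the first enzyme of serotonin synthesis in neurons, differed from the genes above in its order among the high libraries. It was at 4.56, 4.07 and 3.46 CPM in Δ306, with the library of lowest Foxl2 highest, and between 0.877 and 4.29 (median 2.57) in Δ93, where the lowest value fell in replicate 5, the library with the highest Foxl2. In WT it stood at 0, 0.0971 and 0 CPM and in Δ104 at 1.86, 1.33, 0.349 and 0.0486. Ordered by mean CPM per kilobase in Δ93, the 7 genes ran Chrm4 (34.7), Isx (4.81), Cdx2 (2.95), Irx3os (2.46), Gpr55 (1.90), Tph2 (0.925) and Nr2e3 (0.670). The 6 Chrm4 libraries all lay above those of the other 6 genes on this scale in the same libraries, whereas Cdx2, Irx3os and Gpr55, and Tph2 and Nr2e3, differed as neighbours by less than the larger SD.

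Prap1, Akr1c18 and Lypd4 rested on few libraries, all of them Δ93. Prap1 was at 156 CPM in Δ93 replicate 4 and at most 0.802 in the other 5, so that the group mean of 26.3 ± 63.6 CPM (SD, n = 6) describes 1 library. Without replicate 4 the Δ93 mean was 0.339 ± 0.274 (SD, n = 5), beside 0.0561 ± 0.0208 in WT and 0.357 ± 0.268 in Δ104. In Δ306 Prap1 stood at 0.263, 0 and 0 CPM, and in the first table of WT and Δ306 at 0.304, 0.209 and 0, so its counts differ between the authors' tables. The same library alone held high levels of Guca2b (156 CPM, the gut hormone uroguanylin), Pigr (27.4, the epithelial receptor that carries polymeric immunoglobulin), Cuzd1 (38.5), Aqp8 (28.2, a water channel) and C3 (267, complement), each at least 21.8 times its level in any other library of the table. The part of epithelial tissue in that library was not tested. The gut epithelium list summed to 55.1 CPM there and to 28.2 to 42.7 in the other Δ93 libraries.

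Akr1c18 was at 13.3 CPM in Δ93 replicate 4, 1.00 in replicate 5, and 0.189 to 0.442 in the other 4. It lay between 0.119 and 0.247 CPM in Δ306, at 0.278, 0.246, 0.349 and 0 in Δ104, and at 0, 0.0194 and 0 in WT (1 count). Without replicate 4 the Δ93 mean was 0.436 ± 0.332 CPM (SD, n = 5). The gene lies in a cluster of similar Akr1c genes, and reads that fit several of them could be split by the counting, so its values are uncertain.

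Lypd4 was at 23.6 CPM in Δ93 replicate 4, 6.17 in replicate 2, 1.70 in replicate 5 and 0.424 to 0.510 in the other 3. It stood at 0.351, 0.595 and 0.247 CPM in Δ306 and had 0 counts in all 3 WT libraries. Had WT held 3 counts over its 3 libraries, taken as the floor of detection, Lypd4 would already be at least 242-fold higher in Δ93 and at least 17.8-fold higher in Δ306. Replicate 4 held 891 of the 1302 Lypd4 counts in Δ93, and without it the bound for Δ93 was 91.3-fold. Its start lies 116 bases from that of Dmrtc2, a doublesex-related gene of germ cells that runs in the opposite direction. Dmrtc2 was highest in the same Δ93 libraries, at 75.6, 19.9 and 12.0 CPM in replicates 4, 2 and 5. The 10 genes of the meiotic germ cell list summed to 2260, 1240 and 735 CPM in those 3 libraries, 403 to 555 in the other 3 Δ93 libraries, 227 to 514 in Δ306 and 11.9 to 131 in WT. The sum and Lypd4 did not move together in every library: Δ225 replicate 1 had a sum of 577 CPM with Lypd4 at 0.0976 CPM (1 count), and Δ104 replicates 1 and 2 had sums of 498 and 450 with Lypd4 at 0.139 and 0.688. The part of meiotic germ cells in the Lypd4 values was not tested.

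**Figure D3:**
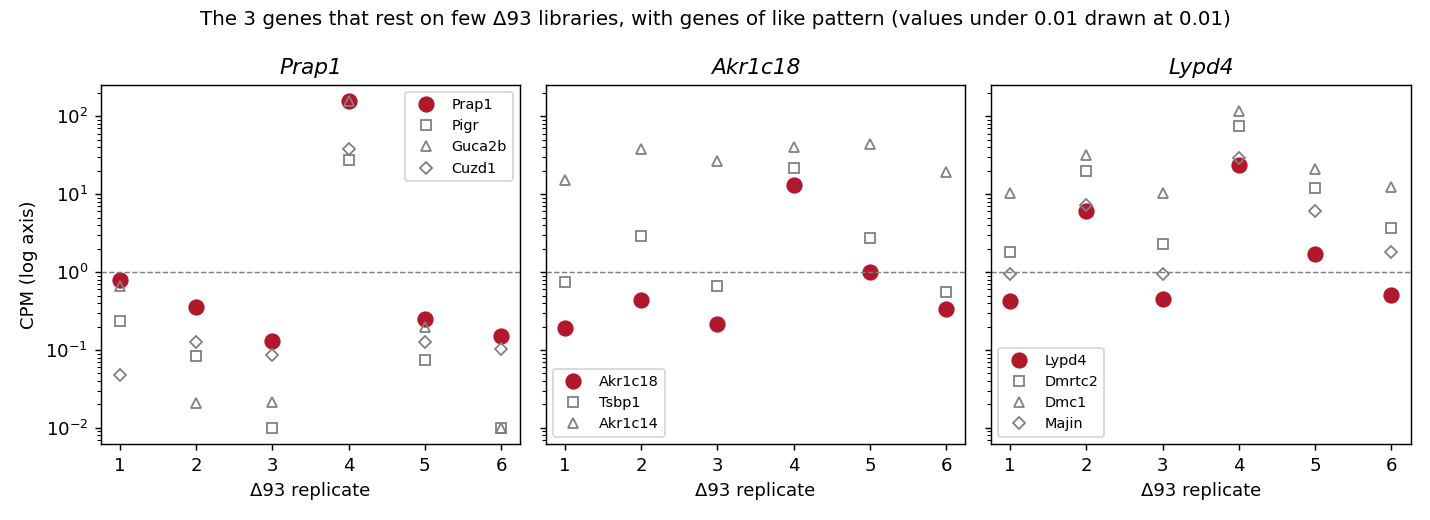
Levels in the 6 Δ93 libraries (x axis, replicate number; y axis, CPM on a log scale) of Prap1, Akr1c18 and Lypd4 (red) and of genes of like pattern (open symbols); values under 0.01 CPM are drawn at 0.01. Prap1, Pigr, Guca2b and Cuzd1 are high in replicate 4 alone, while Lypd4, Dmrtc2, Dmc1 and Majin are highest in replicates 4, 2 and 5.

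Within Δ104 the 10 genes divided the 4 libraries, with 7, 7, 2 and 0 genes on in replicates 1 to 4. Foxl2 was at 77.0, 40.5, 13.0 and 1.22 CPM in the same libraries. The 12 pre-granulosa genes summed to 1460, 847, 584 and 363 CPM and the 16 Sertoli genes to 439, 999, 1900 and 2760, so the libraries with more members on had more pre-granulosa and less Sertoli transcript. Replicate 3, with Isx (1.1 CPM) and Chrm4 (1.98 CPM) on, lay between the others on each of these measures. Replicate 4 resembled WT, where the pre-granulosa sums were 349 to 414 and the Sertoli sums 2960 to 3380. Replicate numbers carry no order, and the replicate 4 library held 109% of the WT median of Y-linked transcripts, against 16.1%, 16.9% and 5.75% in replicates 1 to 3.

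Δ225 and Meis1 KO against WT are the comparisons that the choice of genes did not use, although they share the WT libraries with it, and Irx3os, Chrm4 and Nr2e3 had also come to notice through Δ225 against other deletions. In Δ225 none of the 10 genes was called by edgeR's quasi-likelihood test at a Benjamini-Hochberg adjusted p under 0.05. All 10 entered that test, partly through the groups where they are high. Over the 22941 genes tested in Δ225, 0.131% were called higher and 0.0785% lower, and against so low a background share a count of 0 says little about these genes. The adjusted p ran from 0.247 to 0.988, 1 gene had an unadjusted p under 0.05, and DESeq2 called 0, with 2 unadjusted p under 0.05. Isx differed by a log2 fold change of -0.13 (SE 1.73), Tph2 by 0.04 (SE 1.23) and Chrm4 by -0.23 (SE 1.05). Gpr55 had the value 1.37 (SE 0.84, edgeR adjusted p = 0.407), with Δ225 libraries between 0.0434 and 0.309 CPM overlapping the WT range.

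Nr2e3, Lypd4 and Prap1 lay several-fold from WT in Δ225, each at very low counts. Nr2e3 had 10 counts in the 3 WT libraries and 0 in the 6 Δ225 libraries, at least 4.72-fold lower with the same floor applied to Δ225 (edgeR adjusted p = 0.247). Lypd4 had 18 counts in 6 Δ225 libraries and 0 in WT, at least 4.24-fold higher (edgeR adjusted p = 0.35). These bounds fell to 2.73-fold for Nr2e3 without WT replicate 1 and to 2.73-fold for Lypd4 without Δ225 replicate 6. Prap1 had 47 counts in Δ225 and 7 in WT, a pooled ratio of 4.74 (95% counting interval 2.13 to 12.4) and a log2 fold change of 2.06 (SE 2.38, edgeR adjusted p = 0.668). The same WT libraries held 15 Prap1 counts in the first and Meis1 tables. The WT level under this ratio is therefore uncertain beyond the counting interval. Foxl2 in Δ225 had a log2 fold change of 2.06 (SE 0.94, edgeR adjusted p = 0.291). At this depth 6 of the 10 genes, Isx, Cdx2, Tph2, Irx3os, Nr2e3 and Akr1c18, had 11 or fewer counts in all 6 Δ225 libraries together, so changes of a few fold in them were not detectable.

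In Meis1 KO, Foxl2 was called higher, by a log2 fold change of 2.90 (SE 0.19, edgeR adjusted p = 0.000753), from 0.821 ± 0.138 CPM in WT (SD, n = 3) to 6.16 ± 0.581 (SD, n = 4), higher in 4 of 4 libraries. Over the 16791 genes tested in Meis1 KO, 1.27% were called higher and 0.53% lower. Of the 10 genes, the 7 that were high in Δ306 lay below every Δ306 library in all 4 Meis1 KO libraries. Taking genes that are high in Δ306 largely fixes this outcome. The 2 groups were also scaled separately, and the share of all genes that lie apart in this way was not computed. Prap1, low in both groups, stood at 0.201, 0.384, 0.0192 and 0.129 CPM in Meis1 KO against 0.054, 0.106 and 0.224 in the WT libraries of the same table. Chrm4 was the one member with enough counts to be tested. It stood at 1.09, 1.08, 0.825 and 0.859 CPM, each above the WT libraries at 0.594, 0.634 and 0.504, and had a log2 fold change of 0.73 (SE 0.24) that was not called (edgeR adjusted p = 0.156). DESeq2 called 0 of the 10, gave no adjusted p for 9, and found 2 unadjusted p under 0.05. Gpr55 was at 0.334, 0.168, 0.326 and 0.193 CPM, each above the WT libraries at 0.162, 0.0634 and 0, and it did not pass the filter on low counts. Fgf9 in Meis1 KO had a log2 fold change of 0.22 (SE 0.09, edgeR adjusted p = 0.256).

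The Meis1 KO libraries and Δ225 replicate 4 had Foxl2 between 5.46 and 7.19 CPM, above WT and below Δ104 replicate 3 at 13.0. Isx was at 0.0215 to 0.0669 CPM in these 5 libraries and at 1.1 in Δ104 replicate 3. In the 22 libraries of the table of all deletions, Isx and Chrm4 were on in the 12 libraries with Foxl2 at 13.0 CPM or more and in none of the 10 at 7.19 or less. In the Meis1 table Chrm4 did not keep to this division, since it was on in Meis1 KO replicates 1 and 2, at 1.09 and 1.08 CPM with Foxl2 at 5.46 and 6.86. Cdx2, Irx3os and Gpr55 were on in the 11 libraries at 36.5 or more and in none of the 11 at 13.0 or less. Tph2 had no such division, being not on at a Foxl2 of 141 CPM, and neither had Nr2e3, not on at 52.0 and on at 40.5. Lypd4 was on in 3 libraries, all at 130 or more. The choice of genes partly fixes these divisions.

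**Figure D4:**
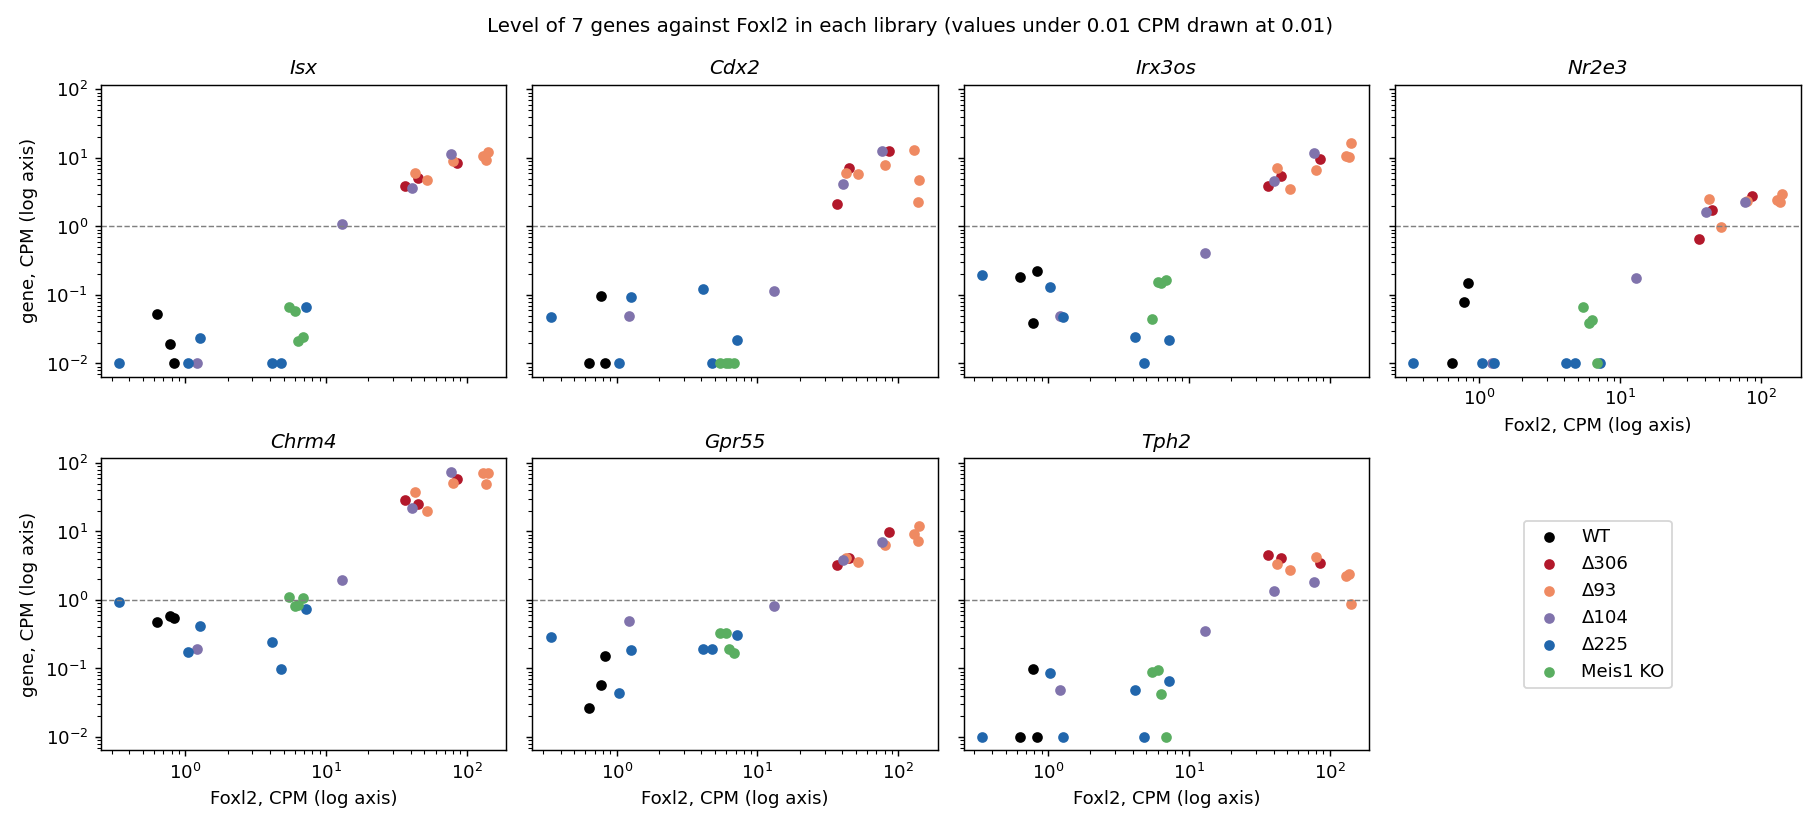
CPM of 7 of the genes (y axis, log) against CPM of Foxl2 (x axis, log) in each of the 26 libraries, coloured by group, with a dashed line at 1 CPM; values under 0.01 CPM are drawn at 0.01. Isx, Chrm4, Gpr55 and Irx3os climb with Foxl2 above 13.0 CPM, whereas Tph2 is lowest of its Δ93 values at the highest Foxl2.

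Among the 9 Δ306 and Δ93 libraries the ratio of a gene's CPM to that of Foxl2 varied least for Isx (coefficient of variation 21.7%) and Gpr55 (21.9%). It varied by 28.8% for Chrm4, 30.5% for Irx3os, 49.1% for Nr2e3, 52.9% for Cdx2 and 72.6% for Tph2. The ratios of Isx, Cdx2, Chrm4, Nr2e3 and Gpr55 were all lowest in Δ93 replicate 4. Lypd4, Akr1c18 and Prap1, which rest on few libraries, had coefficients of 173%, 212% and 290%.

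The relation to Foxl2 inside a group was computed where a group had 6 libraries, in Δ93 for all 10 genes and in Δ225 for the 4 with a mean of at least 0.1 CPM, 14 relations in all, on log2 CPM with a prior count of 2. The Δ93 libraries served to choose the genes, so their 10 relations are a description over 6 libraries with no test. There Gpr55 had Pearson r = 0.92 and Spearman's ρ = 0.886, and Isx had r = 0.90 and ρ = 0.886. Without the 2 libraries farthest from the median Foxl2, r was 0.708 for Gpr55 and 0.638 for Isx. Chrm4 (r = 0.789), Lypd4 (0.785) and Irx3os (0.783) came next, while Tph2 had r = -0.617 and Cdx2 r = -0.173. In Δ225, r was 0.55 for Prap1, 0.251 for Lypd4, 0.209 for Gpr55 and -0.333 for Chrm4, at two-sided exact permutation p-values of 0.261 to 0.731 (adjusted over the 14 relations, 0.457 to 0.731), and ρ was 0.486, 0.20, 0.371 and -0.257, at exact permutation p-values of 0.356 to 0.714 (adjusted, 0.622 to 0.769). None of the 4 passed the threshold. Without the 2 libraries farthest from the median Foxl2, r in Δ225 was 0.237, 0.137, 0.678 and -0.503 in the same order.

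Across all 22 libraries the 7 widely expressed genes moved together, which their choice largely fixes, and each pair of them had a Pearson r of at least 0.907 on log2 CPM. Prap1 had an r of at most 0.261 with any of the 7. The libraries fall into genotype groups of unlike level and differ in depth, so these values are a description. Among 14013 named genes with a mean of at least 1 CPM, the pattern of Chrm4 was most like that of Tnfrsf19, a receptor of the tumour necrosis factor family (r = 0.994), then Irx3 (0.989) and Klhdc7a (0.988). Irx3os also had Tnfrsf19 first (0.986), and Isx had Lypd6, Cfap161 and Tnfrsf19, all at 0.982. Nr2e3 was most like Lypd6 (0.976), Ccdc182 and Irx3 (0.975 each).

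Cdx2 was most like Phlda2, an imprinted gene (0.974), B3gnt7 (0.966) and Kyat3 (0.963), and Phlda2 shared its low Δ93 replicate 4, at 5.04 CPM against 7.48 to 19.3 in the other 5. Tph2 was most like Adm, the vasodilator peptide adrenomedullin, and Tmem171 (0.961 each), then Snx31 (0.954). Gpr55 was most like Csgalnact1 (0.976), Tns4 (0.973) and Rnf128 (0.972). Lypd4 was most like Dmc1 (0.95), a recombinase of meiosis, and Majin and Dmrtc2 (0.945 each). Prap1 was most like Pigr (0.953), Guca2b (0.875) and Cuzd1 (0.854). Outside Δ93 replicate 4 these genes were at most 0.236, 0.66 and 0.391 CPM, so their likeness to Prap1 rests largely on that library. Akr1c18 was most like Tsbp1 (0.938), Inca1 (0.907) and Usp3 (0.904). Foxl2 ranked between 29 (Gpr55) and 2146 (Prap1) in this order.

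Few single genes of the gut programme around Isx and Cdx2 were called. Of the 15 gut epithelium genes, 13 were tested. In Δ306, Krt20, an intermediate filament of gut epithelium, rose and Cdhr5, a brush-border cadherin, fell. Over all 22941 genes tested in Δ306, 2.96% were called higher and 3.46% lower. In Δ93, Cdx1, the close relative of Cdx2, and Krt20 rose and Cdhr5 fell, where 7.23% of all genes were called higher and 6.84% lower. Krt20 had a log2 fold change of 3.38 (SE 0.76) in Δ306 and 4.04 (SE 0.74) in Δ93, from 0.29 to 0.528 CPM in WT to 3.19 to 11.2 in Δ93. Cdx1 stayed low, at 0.802 to 3.12 CPM in Δ93. The median log2 fold change of the list was 0.19 in Δ306 and 0.02 in Δ93, beside 0.08 and 0.06 over all genes. The list's sums were 26.1 to 30.2 CPM in WT, 27.4 to 38.9 in Δ306 and 28.2 to 55.1 in Δ93, where 5 of 6 libraries, all but replicate 1, lay above every WT library. These sums include Krt20 and Cdx1, whose rises are given above, so they do not show a rise of the list as a whole. Vil1, the brush-border protein villin, was under 1 CPM in all Δ306 and Δ93 libraries. When 1 library at a time was left out, Krt20 kept its call in Δ93 in all 9 fits and lost it in Δ306 without Δ306 replicate 3 or any 1 WT library (edgeR adjusted p up to 0.0861). Cdx1 lost it without Δ93 replicate 2 or WT replicate 1 or 2 (up to 0.137), and Cdhr5 in all 9 fits of Δ93 (0.0505 to 0.175) and without Δ306 replicate 1 or 3 or WT replicate 1 or 3 in Δ306 (up to 0.149).

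Of the 6 genes of the ISX target and retinoid uptake list, Scarb1, a lipoprotein receptor, fell, by 1.75 on the log2 scale (SE 0.51) in Δ306 and by 1.65 (SE 0.41) in Δ93, and none rose. Of 7 fetal Leydig genes, 4 were also called lower in Δ306 and 6 in Δ93, and a link of Scarb1 to Isx was not tested. Among 10 CDX, ParaHox and Iroquois homeobox genes, 6 were tested. Irx3 and Irx5 rose in Δ306, with log2 fold changes of 4.90 (SE 0.97) and 3.89 (SE 0.93), and Irx2, Irx3, Irx5 and Cdx1 rose in Δ93. Pdx1, which neighbours Cdx2, had 0 counts in all 22 libraries, and Cdx4 did not pass 0.116 CPM. Of the 8 other serotonin genes, 6 were tested. Slc6a4, the serotonin transporter, fell by 2.97 (SE 0.53) in Δ306 and by 2.66 (SE 0.41) in Δ93 on the log2 scale, and none rose. The list's median log2 fold change was nevertheless 0.80 in Δ306 and 0.54 in Δ93, beside 0.08 and 0.06 over all genes, and its sums were 31.8 to 77.8 CPM in WT, 62.5 to 110 in Δ306 and 65.8 to 101 in Δ93. Lmx1b, a homeobox factor of serotonergic neurons, had a log2 fold change of 1.98 (SE 0.67, edgeR adjusted p = 0.052) in Δ93. Slc6a4 and Irx3 kept their calls in both deletions whichever library was left out. Scarb1 lost its call in all 6 such fits of Δ306 (edgeR adjusted p 0.0689 to 0.169) and in Δ93 without WT replicate 1 (0.0732), Irx5 in Δ306 without replicate 3 or any 1 WT library (up to 0.0836), and Irx2 in Δ93 without WT replicate 1 or 2 (up to 0.0816).

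Of 5 tested muscarinic and cholinergic genes, Chrm3 fell by 2.32 (SE 0.64) in Δ306 and 2.34 (SE 0.51) in Δ93 on the log2 scale, in the libraries where Chrm4 was high, and none rose. None of the 3 tested photoreceptor genes rose. Crx, a defining factor of photoreceptors that was not tested, had 0 counts in WT, Δ306 and Δ104, but not in Δ93 or Δ225. Of the 7 tested partners of Akr1c18, Akr1c14 rose by a log2 fold change of 2.65 (SE 0.53) in Δ306 and 3.11 (SE 0.51) in Δ93, Akr1c13 and Akr1c19 rose in Δ93 alone at this threshold, and Prlr, the prolactin receptor, fell in both. The difference between the deletions was not tested. With 1 library left out at a time, Prlr kept its call throughout, Chrm3 and Akr1c14 kept theirs in Δ93, Chrm3 lost it in all 6 fits of Δ306 (edgeR adjusted p 0.0569 to 0.141) and Akr1c14 lost it there without replicate 3 (0.0601). Akr1c13 lost its call without WT replicate 2 or 3 (up to 0.0926), and Akr1c19 without any 1 of Δ93 replicates 2, 4 and 5 or the WT libraries (up to 0.182).

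Of the 12 pre-granulosa genes, Foxl2 included, 9 rose in Δ306 and 10 in Δ93, with medians of 2.27 and 2.72 beside 0.08 and 0.06 over all genes, and Fzd1 fell in Δ93. Of the 16 Sertoli genes, 1 rose and 1 fell in Δ306, and 1 rose and 6 fell in Δ93, with medians of -2.0 and -2.20. Of the 10 meiotic genes, 3 rose in Δ306 and 9 in Δ93. Of the fetal Leydig genes 4 of 7 fell in Δ306 and 6 in Δ93, and of the mesonephros genes Pax8 rose and Wnt9b fell in Δ93. Of the 6 germ cell genes Tex101 rose in Δ93, and all 4 Y-linked genes fell there. Leaving out WT replicate 2 or 3, or Δ306 replicate 3, reduced the pre-granulosa count in Δ306 from 9 to 4, and leaving out WT replicate 1 reduced it to 5 and the meiotic count in Δ93 to 4. The Sertoli count fallen in Δ93 was 3 without Δ93 replicate 4 or any 1 WT library and 10 without Δ93 replicate 6, the Leydig count in Δ306 was 1 without Δ306 replicate 3, and the meiotic count in Δ306 was 1 without Δ306 replicate 3 or WT replicate 1 or 3. Leaving out all 7 libraries of low Y-linked signal left no list gene called in either deletion (Foxl2 in Δ93 at an edgeR adjusted p of 0.0512), and over all genes 8 called higher and 17 lower in Δ306 and 6 and 3 in Δ93.

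In Δ104 and Δ225, edgeR called none of the 106 tested genes of the 14 lists. At an unadjusted p under 0.05 there were 28 in Δ104 and 15 in Δ225, and DESeq2 called 12 higher in Δ104 and 0 in Δ225. Over all genes, edgeR called 0.061% higher and 0% lower in Δ104. Without Δ104 replicate 4, edgeR called 13 of the list genes higher, and without replicate 3 it called 3. In Meis1 KO, Foxl2 alone was called higher among 100 tested list genes, and Sox10, Mro and Uty were called lower. Foxl2 kept its call whichever library was left out, whereas Mro and Sox10 kept theirs only without WT replicate 1, and Uty only without that library or Meis1 KO replicate 3.

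Of 59 genes that start within 100 kb of one of the 10, 35 were tested in the table of all deletions. In Δ306, 5 were called higher (Msx3, Gm36325, Irx3, Gm20275 and Gm28884) and 2 lower, and in Δ93, 11 higher and 3 lower, beside 2.96% and 3.46% of all tested genes in Δ306 and 7.23% and 6.84% in Δ93. Irx3 stood at 2.25 to 4.52 CPM in WT, 69.7 to 144 in Δ306 and 68.4 to 197 in Δ93. Gm28884, a non-coding gene 23675 bases from the start of Gpr55 on its strand, had log2 fold changes of 7.23 (SE 1.65) and 7.59 (SE 1.58). Gm20275, beside Nr2e3, had 4.77 (SE 1.03) and 4.35 (SE 0.98), and Msx3, a homeobox gene 44306 bases from Prap1, had 4.66 (SE 1.12) and 4.33 (SE 1.06). Dmrtc2, beside Lypd4, rose in Δ93 by a log2 fold change of 6.66 (SE 1.61) and had 3.55 (SE 1.49, edgeR adjusted p = 0.162) in Δ306. Flt3, near Cdx2, fell by 2.41 (SE 0.63) in Δ306 and 1.97 (SE 0.49) in Δ93, and Creb3l1, near Chrm4, by 1.65 (SE 0.28) and 1.36 (SE 0.23). Irx3 and Creb3l1 in both deletions, and Gm28884 and Gm20275 in Δ93, kept their calls whichever library was left out. Dmrtc2 lost its call without WT replicate 1 or 3 (edgeR adjusted p up to 0.0551), Msx3 and Flt3 in Δ93 without WT replicate 1 and WT replicate 2 respectively (0.0589 and 0.0586) and in Δ306 in 5 of 6 fits each, and Gm28884 and Gm20275 in Δ306 in 4 and 2 of 6 fits. edgeR called no neighbour in Δ104, Δ225 or Meis1 KO, with 14, 7 and 8 at an unadjusted p under 0.05, and DESeq2 called 4, 1 and 3.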

How the data were processed

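XY gonad RNA of embryonic day E13.5 was sequenced in 26 libraries after poly(A) selection with a directional kit, per the labels' protocols. The authors deposited raw counts per gene: a table of WT and the 4 deletions (57186 genes, 22 libraries), a first table of WT and Δ306, and a Meis1 table with the same WT libraries (31053 genes each). Per the submitters' processing notes, STAR (2.7.10a for WT and Δ306), featureCounts of Subread, DESeq2 and the build mm10 were used; the annotation and strand setting are not given in the sources used here. A further table deposited by the authors served only to pair gene identifiers with symbols. The first table entered only the alternatives.

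The main test was the quasi-likelihood F-test of edgeR 4.0.16 (R 4.3.3) after filterByExpr and TMM scaling, with Benjamini-Hochberg adjustment over all tested genes and calls under 0.05, in 1 fit of 22 libraries (22941 genes) and 1 of the 7 Meis1 libraries (16791 genes). DESeq2 1.42.0 served as an alternative. On simulated counts for Δ225 against WT over 22941 genes, 32.8% of genes changed 2-fold, 73.1% of those changed 4-fold and 80.3% of those changed 16-fold were recovered. For Meis1 KO over 16791 genes these were 61.2%, 88.1% and 95.5%. Each gene was simulated at its mean over all libraries of the fit. These shares therefore do not describe genes that are near 0 in both compared groups, as most of the 10 are. Intervals and floors cover counting error only. Coordinates come from GENCODE M21 (GRCm38), where 51929 of the 57186 identifiers and all 10 genes were found, and promoter sequences from RefSeq (GRCm38.p6). The genes named beside the 10 are Foxl2 and Fgf9, called or defining genes of 14 lists (123 genes: pre-granulosa, Sertoli, Leydig, germ cell, meiotic, Y-linked, gut, serotonergic, photoreceptor, mesonephros, ISX targets, Akr1c18 partners, muscarinic and homeobox genes), the 3 named genes of most like pattern per member, and genes that start within 100 kb of one; genes given as high in Δ93 replicate 4 were chosen after their values were seen. The members and lists were chosen with earlier results of these data known. The alternatives were DESeq2, RLE scaling, no filter on low counts, WT and Δ225 alone, a replicate block, each library left out, other thresholds and prior counts, and leaving out libraries of low Y-linked signal. The result of 1 gene of the photoreceptor list is not reported here.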

Additional observations from a re-analysis of the deposited data

Results flagged for a closer look

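Levels of the 10 genes were examined for a library far from the others in the 4 groups of 4 or more libraries, 40 sets of values, of which chance flags about 1 in 20. In 8 of them the gap from 1 library to its nearest neighbour took up more of the group's range than the 95% limit of Dixon's ratio. Of these, 3 lay in Δ93 replicate 4: Prap1 at 156 CPM against 0.802 in the next library, Akr1c18 at 13.3 against 1.00, and Lypd4 at 23.6 against 6.17. Nr2e3 in Δ93 replicate 6 was at 0.970 CPM, below the next at 2.31. In Δ225, Isx was at 0.0662 CPM in replicate 4 against 0.0234, and Prap1 at 0.610 in replicate 6 against 0.221. In Meis1 KO, Lypd4 was at 0.048 CPM in replicate 2 against 0 in the other 3, and Irx3os at 0.0446 in replicate 1, below the next at 0.150. The Δ225 and Meis1 KO values rest on few counts, and no cause was tested.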

How the results depend on the processing

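The count of members called, 0 in Δ225 and 0 in Meis1 KO, was 0 under each of the 25 alternatives run. In Meis1 KO only 1 of the 10 entered the main test, and DESeq2 gave no adjusted p for 9. In Δ225 the genes entered partly through the groups where they are high, and Gpr55 had no result in the fit of WT and Δ225 alone. Genes without a test count as not called, so this stability says little about the 10. The log2 fold changes of Gpr55 and Foxl2 in Δ225 kept direction and side of the threshold in each alternative that tested them. So did those of Chrm4 and Foxl2 in Meis1 KO. That of Chrm4 in Δ225 turned from -0.23 to 0.32 with a replicate block, neither being called. Replicate numbers did not pair the samples (correlations of same-numbered deviations -0.16, 0.159 and -0.125 for WT and Δ225, and 0.375, 0.326 and -0.0184 for WT and Meis1 KO, where 1 of 3 pairs stayed under 0.1). With the block, list genes called became 5 higher and 1 lower in Δ104 and 1 lower in Meis1 KO, and over all genes 764 higher and 874 lower in Δ225 against 30 and 18. DESeq2 called 594 higher and 187 lower there and 811 and 597 in Meis1 KO against 214 and 89; among list genes it called 12 higher in Δ104, and 7 higher and 9 lower in Meis1 KO. Without the libraries of low Y-linked signal, list genes called in Δ306 and Δ93 fell to 0 in both directions.

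At 0.5 CPM the shares on became 6.67% in WT, 73.3% in Δ306 and 5.0% in Δ225; the other 47 of 50 alternative shares stayed within 1 SD over libraries. Leaving out 1 library at a time, list genes called ranged from 5 to 12 higher and 3 to 7 lower in Δ306 (15 and 10 with all), 0 to 13 higher in Δ104 (0), 18 to 29 higher and 12 to 27 lower in Δ93 (28 and 24), and 1 to 11 higher and 0 to 14 lower in Meis1 KO (1 and 3); shares on ranged from 65.0% to 70.0% in Δ306, 72.0% to 80.0% in Δ93, 30.0% to 53.3% in Δ104 and 3.33% to 6.67% in Meis1 KO. The sign of r with Foxl2 turned in 6 such cases: without Δ93 replicate 4 for Cdx2 (range of r -0.626 to 0.294) and Prap1 (-0.26 to 0.521), without Δ225 replicate 3 for Lypd4 (-0.172 to 0.594) and Chrm4 (-0.812 to 0.213), and without Δ225 replicate 2 (-0.151) or 4 (-0.0438) for Gpr55 (up to 0.789). The causes were not tested, and at levels near 1 CPM depth limits which libraries count as on.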
